A study of Mus musculus with 12 samples.

Results

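Kidneys of Jaml knockout (KO) mice were compared with kidneys of wild-type (WT) mice, both 24 h after ischemia-reperfusion injury (IRI), in which the renal blood flow is stopped and later let back in. The samples were taken by their titles: KO IRI replicates 1 to 3 and WT IRI replicates 1 to 3, which are 6 of the 12 kidneys of the study. The other 6, 3 WT sham and 3 KO sham kidneys, served for the spread and as the uninjured background. The mice were males on a C57 background, and the knockout is described by the submitters as a deletion of Jaml that was checked by western blot and tissue staining, with no cell-type restriction and no allele named. The series text gives 40 min of clamping of both renal pedicles and the protocol text 30 min of ligation, and the labels do not settle which was used. Ages and litters were not given in the sources used here. Each kidney was measured on a one-colour Agilent array that reads Cy3-labelled RNA, and each is taken as 1 mouse because the series text calls the samples independent.

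JAML, the protein made from Jaml, is a transmembrane molecule of the junctional adhesion molecule family on neutrophils, monocytes and some T cells. It binds the coxsackievirus and adenovirus receptor of epithelia, which is encoded by Cxadr, and takes part in the passage of leukocytes across epithelium. In the reperfused kidney, injured tubule cells switch on injury and immediate early genes, and neutrophils arrive within hours along gradients of CXC chemokines. Mincle, a C-type lectin receptor of macrophages and neutrophils encoded by Clec4e, senses dead cells and signals through the adaptor encoded by Fcer1g and the kinase encoded by Syk.

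The promoters of 3 genes that were lower in KO are printed as examples of windows that hold the motifs searched. Cxcl2 and Cxcl3 encode neutrophil-attracting chemokines and Isg15 an interferon-induced ubiquitin-like protein. The sequences are RefSeq's (GRCm38.p6), 5′ to 3′ on the gene's own strand, from base -120 to base -21 before the annotated start. Capitals mark matches to the kappa-B motif (GGG, any 2 bases, TTTCC) in the chemokine genes and to the core of the interferon-stimulated response element (GAAA, any 2 bases, GAAA) in Isg15, each searched on both strands. In Isg15 the 3 matches overlap and are printed as 1 stretch.
Cxcl2, chr5:90903779-90903878, plus strand: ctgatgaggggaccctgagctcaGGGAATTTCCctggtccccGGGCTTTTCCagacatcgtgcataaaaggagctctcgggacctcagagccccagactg
Cxcl3, chr5:90785981-90786080, plus strand: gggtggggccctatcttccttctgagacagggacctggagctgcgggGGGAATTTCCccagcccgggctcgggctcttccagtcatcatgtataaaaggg
Isg15, chr4:156200839-156200938, minus strand: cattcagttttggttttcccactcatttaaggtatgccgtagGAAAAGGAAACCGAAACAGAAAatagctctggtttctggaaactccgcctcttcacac
The Cxcl2 matches lie at bases -97 to -88 and -78 to -69, the Cxcl3 match at -73 to -64, and the Isg15 matches between -78 and -57. Of the 25748 genes tested, 14629 matched a promoter window of 250 bases before to 50 bases after the start. A gene counted as holding a motif where any of its windows held it. The kappa-B motif was in 3 of 5 matched genes of the neutrophil chemokine list and in 1.98% of all matched genes. The interferon element core was in 9 of 14 matched genes of the interferon response list and in 3.84% of all matched genes. Among all called genes the shares lay nearer to those of all genes: the kappa-B motif was in 3.97% of 126 matched genes lower in KO and 2.52% of 119 higher, and the interferon element core in 4.76% and 5.04%. Counted by window and not by gene, over all 32851 windows, the shares were 1.63% and 3.44%. These are matches of letters and not measured binding.

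Levels are given as log2 of the scanner's processed signal over the 75th percentile of the array, so a level of 0 is a moderately bright probe. Differences are KO IRI minus WT IRI in log2 units, with the standard error (SE) of a limma fit to all 12 arrays and n = 3 per group. A gene passed where the two-sided p, adjusted by Benjamini-Hochberg over all 25748 genes, was under 0.05. Signal was well above background for 62.9% to 68.1% of probes per array, and none was saturated. All 6 WT arrays were on 1 slide and all 6 KO arrays on another, scanned separately, so genotype and slide cannot be told apart in any level difference below. WT IRI replicate 1 stood apart: its values deviated from the group means by a root mean square of 0.578, against 0.205 to 0.432 on the other 11 arrays. With 3 arrays per group the count of genes passing depended on single arrays, and the genes that keep their call are named as such. In whole-kidney RNA, fewer cells of a type and less RNA per cell cannot be told apart.

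The targeted gene was checked first. Jaml was read by 1 probe at chr9:44915486-44915545 (mm9), and whether it lies in the deleted part was not given in the sources used here. Its level was 0.55, -1.80 and -1.64 on the WT IRI arrays and -1.89, -2.70 and -3.0 on the KO IRI arrays. The groups did not overlap, but WT IRI replicate 2 and KO IRI replicate 1 were only just apart, and the probe was well above background on all KO arrays. The difference was -1.57 ± 0.56 and did not pass (adjusted p = 0.153). It was -0.81 without WT IRI replicate 1, and -1.02 (adjusted p = 0.0121) with array weights. That weighted fit did not converge, gave weights from 0.0761 to 31.0 and passed 8017 genes. In sham kidneys the difference was larger and passed, at -2.79 (adjusted p = 0.0151). Jaml had its lowest levels in KO kidneys in both states, and in WT it was lower after injury on 2 of 3 arrays than on any sham array. Among 8 measured genes of Jaml, its ligand and its junctional relatives none passed; Cxadr differed by -0.23 and Jam3, which encodes another junctional adhesion molecule, by 0.04. None of 13 measured neighbours of Jaml on chromosome 9 passed either, with a median of 0.09.

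Across the genome 504 of 25748 genes (1.96%) passed in injured kidneys. Of these, 267 (1.04%) were lower in KO and 237 (0.92%) were higher. At an unadjusted p under 0.05 there were 5582 genes (21.7%), and 5615 (21.8%) had no overlap between the groups, of which 2437 (9.46%) were lower in KO. The median difference over all genes was 0.04. The 2 directions differed in brightness: genes lower in KO had a median level of -1.90 over all arrays and genes higher in KO one of -4.43, against -0.87 for all genes. The split also depended on background correction, since normexp correction gave 271 lower and 67 higher. The count was 974 and 253 when WT IRI replicate 2 or 3 was left out and 148 when KO IRI replicate 2 was. Leaving out sham arrays moved it too, to 323 and 330 without WT sham replicates 1 and 2 and to 318 and 275 without KO sham replicates 1 and 3. A fit to the 6 injured kidneys alone passed 35 genes. Without KO IRI replicate 2, 2 neutrophil-attracting chemokines, 1 neutrophil marker, 1 gene of Mincle signalling, 1 tubule injury gene, 1 interferon response gene and 0 matrix genes were lower in KO, and without WT IRI replicate 1 the counts were 3, 3, 2, 4, 3 and 2.

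**Figure D1:**
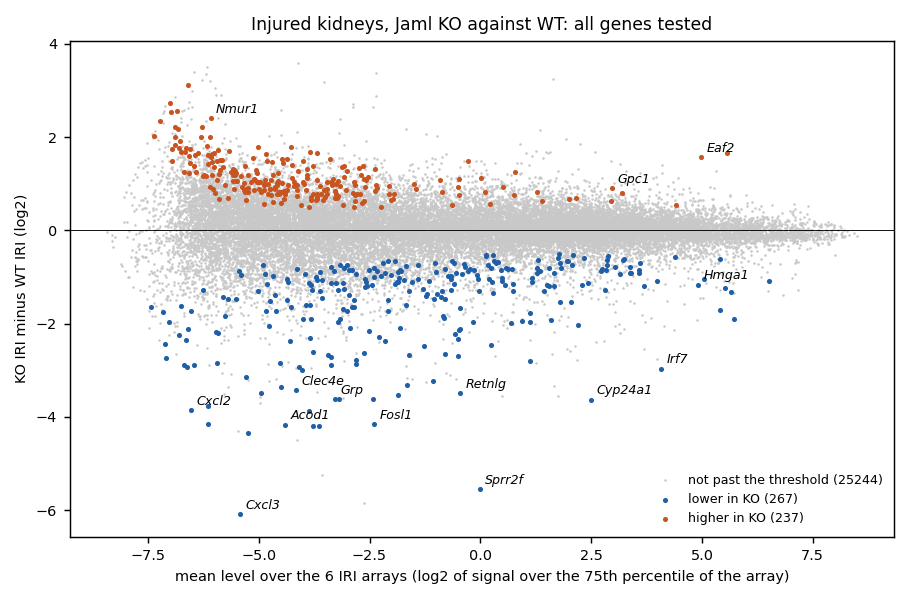
Difference KO IRI minus WT IRI (log2, vertical axis) against the mean level over the 6 IRI arrays (log2, horizontal axis) for the 25748 genes tested, with 267 genes lower in KO in blue, 237 higher in orange and the rest in grey. The genes that were lower reach -6.08 (Cxcl3) and spread over the range of brightness, while most that were higher are dim.

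Of 6 measured chemokine genes that draw neutrophils 4 were lower in KO (against 1.04% of all genes) and 0 higher. In all 6 KO lay below WT with no overlap between groups, against 9.46% of all genes. The median difference was -3.70, and -1.70 with normexp correction; it includes fitted values of probes that were not above background in KO. The members are CXC chemokine ligands and their receptor Cxcr2. Cxcl3 was at -3.57, -2.09 and -1.51 in WT IRI and at -8.57, -8.40 and -8.43 in KO IRI. Its probe was well above background on the 3 WT IRI arrays and on none of the other 9. The fitted difference of -6.08 ± 0.41 (adjusted p = 0.000486) is open at the dim end, and the measured bound is that KO was at least 14.03-fold lower.

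Cxcl2 had the same pattern at a lower level. It was at -3.86, -4.99 and -4.94 in WT IRI and at -8.55, -8.39 and -8.41 in KO IRI, again well above background on WT IRI arrays only. KO was at least 3.04-fold lower, with a fitted difference of -3.86 ± 0.27 (adjusted p = 0.000486). With normexp correction, which pulls dim probes together, the difference of Cxcl2 was -0.64 and did not pass, and that of Cxcl3 was -1.88 and passed. Both kept their call when any 1 of the 12 arrays was left out.

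Cxcl5, an epithelial chemokine, was at -2.90, -1.02 and -1.88 in WT IRI and at -6.52, -6.41 and -4.45 in KO IRI, where only 1 of 3 arrays measured it above background. It differed by -3.86 ± 0.61 (adjusted p = 0.0148), a call that was lost without KO IRI replicate 2. Ppbp, the precursor of platelet chemokines, was measured on all 6 arrays and differed by -2.88 ± 0.53 (adjusted p = 0.0276). Ppbp lost its call without replicate 1 or 3 of WT IRI, or 2 or 3 of KO IRI. In sham kidneys Ppbp differed by -2.03 and passed too (adjusted p = 0.0429). Cxcl1, the brightest of the group, was at 3.91, 1.39 and 1.46 in WT IRI and at -1.56, -2.30 and -0.03 in KO IRI. Its groups were far apart, but WT IRI replicate 1 was high and the difference of -3.55 ± 0.81 did not pass (adjusted p = 0.0576). Cxcr2 differed by -2.31 ± 0.95 and did not pass (adjusted p = 0.203). The probes of the ligands share no run longer than 7 of 60 bases.

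Of 14 measured neutrophil markers 4 were lower in KO (against 1.04% of all genes) and 0 were higher. With no overlap 8 lay lower (against 9.46% of all genes), and the median was -1.74 (-1.09 with normexp correction). The summed level of the list ran from 132.9 to 196.9 in WT IRI, from 73.3 to 92.8 in KO IRI, from 62.3 to 93.0 in WT sham and from 61.3 to 79.4 in KO sham, as linear signal over the 75th percentile. The KO IRI sums lay within the range of WT sham, and every WT IRI sum lay above all other arrays. A linear sum is carried by its brightest members, so a range shared between groups does not show like levels of each member. Stfa2l1, Ly6g, S100a8 and S100a9 were lower in KO sham than in WT sham, as given below. Retnlg, a resistin-like protein of neutrophils, was at 0.90, 1.38 and 1.57 in WT IRI and at -1.12, -2.85 and -2.65 in KO IRI. The difference was -3.49 ± 0.59 (adjusted p = 0.0181), lost without WT IRI replicate 3, KO IRI replicate 2 or KO IRI replicate 3. Stfa2l1, a stefin of granulocytes, differed by -3.62 ± 0.40 (adjusted p = 0.00380) and kept its call whichever array was left out. The collagenase Mmp8 differed by -2.29 ± 0.48 (adjusted p = 0.0421) and lost its call without any of 8 of the 12 arrays.

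Ly6g, which encodes a surface antigen that marks mouse neutrophils, differed by -1.17 ± 0.19 (adjusted p = 0.0148), lost without KO IRI replicate 2. It was at 1.57, 0.75 and 1.11 in WT IRI, and it was higher still in WT sham, with a mean of 2.09. S100a8 and S100a9, the calprotectin subunits, were among the brightest members. S100a8 was at 3.33, 3.36 and 3.24 in WT IRI and at 1.38, -0.20 and 1.00 in KO IRI, with no overlap. Its difference of -2.58 ± 0.66 did not pass (adjusted p = 0.0767), nor did that of S100a9 at -2.55 ± 0.67 (adjusted p = 0.0823). In sham kidneys S100a8 differed by -3.09 (adjusted p = 0.0202) and S100a9 by -3.04 (adjusted p = 0.0224), and both passed. Ly6g passed there too at -1.94 (adjusted p = 0.00180), as did Stfa2l1, at least 2.18-fold lower in KO (adjusted p = 0.00409). Of all genes 3.75% passed as lower in sham kidneys. The primary granule genes Mpo and Elane, which are transcribed in marrow precursors, differed by 0.37 and 0.22 and did not pass.

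Other genes of activated myeloid cells, chosen after their values were seen, went the same way. Il1r2, the decoy receptor for interleukin-1, was at -0.35, -1.12 and -0.39 in WT IRI and at -3.71, -4.91 and -4.09 in KO IRI. It differed by -3.61 ± 0.43 (adjusted p = 0.00554) and passed in all 21 alternatives, the fit to the 6 injured kidneys included. Fpr2, a formyl peptide receptor, differed by -1.43 ± 0.12 (adjusted p = 0.00153) and also passed in all 21. Its replicates were tight, from -0.27 to -0.09 in WT IRI and from -1.68 to -1.51 in KO IRI. Hcar2, a receptor for ketone bodies and niacin on myeloid cells, differed by -3.35 ± 0.33 (adjusted p = 0.00265). Acod1, which makes itaconate in activated macrophages, was at -2.35, -1.93 and -2.70 in WT IRI and below background on every KO IRI array. KO was at least 14.63-fold lower in Acod1 (adjusted p = 0.00265), and this call was kept in all 20 alternatives that measured it. In sham kidneys KO was at least 2.83-fold lower in Acod1 (adjusted p = 0.00696), and Fpr2 differed by -0.64 (adjusted p = 0.0119). In the list of 19 measured monocyte and macrophage markers 1 was lower (against 1.04% of all genes) and 0 higher. The list's median was -0.36, and -0.42 without WT IRI replicate 1. Only 1 member passed as lower. That gene was Chil3, a chitinase-like protein of alternatively activated macrophages and of neutrophils, at -2.46 ± 0.32 (adjusted p = 0.00767). The general macrophage markers Adgre1, Csf1r and Lyz2 lay above the list's median, at 0.39, 0.08 and 0.15, and did not pass.

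**Figure D2:**
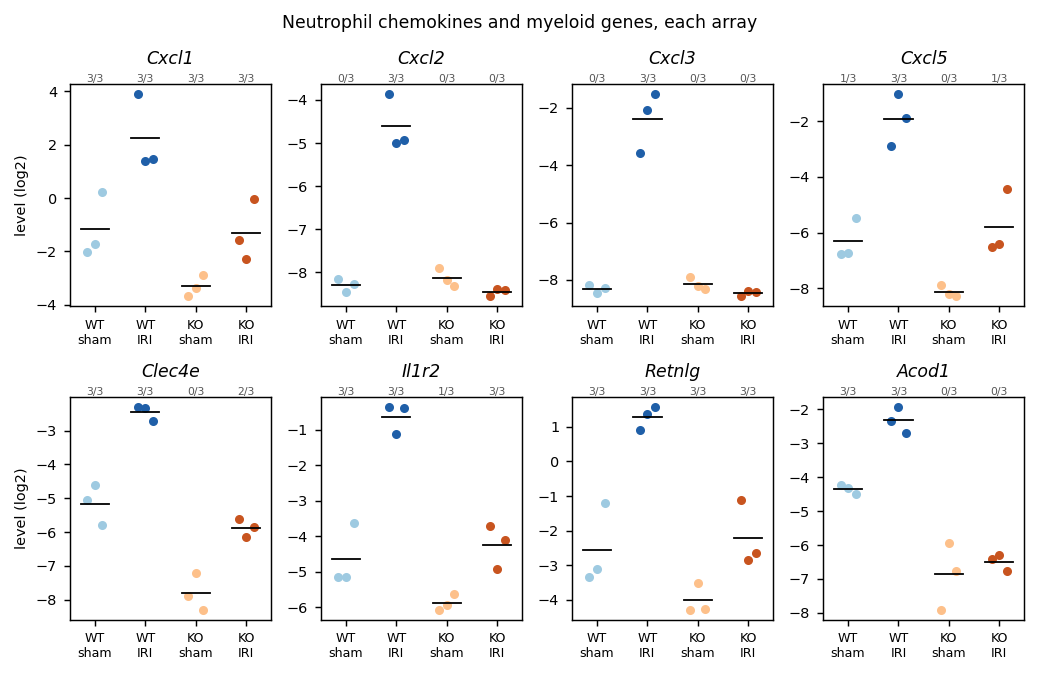
Level (log2, vertical axis) of 4 chemokine and 4 myeloid genes on each of the 12 arrays by group, with a bar at the group mean and above each group the number of its 3 arrays on which the probe was well above background. In all 8 genes the 3 WT IRI arrays lie above the 3 KO IRI arrays, and Cxcl2 and Cxcl3 are above background in WT IRI only.

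Mincle itself was lower in KO. Clec4e was at -2.30, -2.33 and -2.71 in WT IRI and at -5.62, -6.15 and -5.84 in KO IRI, where 2 of 3 arrays measured it above background. The difference was -3.43 ± 0.33 (adjusted p = 0.00265), and -1.50 with normexp correction, and the call was kept in all 20 alternatives that measured it. Of 10 measured genes of Mincle and related lectin signalling 3 were lower (against 1.04% of all genes) and 0 higher, with a median of -0.39 (-0.71 without WT IRI replicate 1). The other 2 were its signalling partners, Fcer1g at -0.81 ± 0.17 (adjusted p = 0.0469) and Syk at -0.99 ± 0.19 (adjusted p = 0.0323). The second probe of Syk differed by only -0.26, and its call was lost without any 1 of 5 arrays, among them WT IRI replicate 3 and KO IRI replicate 2. Fcer1g lost its call in 12 of 21 alternatives, 9 of them with an array left out. Clec4d, which encodes the Mincle partner MCL, differed by -1.62 ± 0.72 (adjusted p = 0.225), with WT IRI replicate 1 at -1.51 and the other WT IRI arrays at 0.45 and 0.33. Downstream, the adaptor Bcl10 differed by -0.28 and the protease Malt1 by 0.05, and neither passed. In sham kidneys Clec4e was well above background on all 3 WT arrays and on no KO array, and KO was at least 1.61-fold lower (adjusted p = 0.00311). Fcer1g and Syk passed as lower in KO sham too, at -1.49 (adjusted p = 0.00257) and -0.94 (adjusted p = 0.0163). So did Clec4d, at a fitted -2.92 (adjusted p = 0.0339).

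Of 22 measured tubule injury genes 3 were lower in KO (against 1.04% of all genes) and 0 were higher. With no overlap 13 lay lower (against 9.46% of all genes). The median was -1.29, with a large spread within groups. Sprr2f, which encodes a proline-rich protein of stressed epithelium, was at 1.16, 4.13 and 3.00 in WT IRI and at -3.67, -4.69 and -0.01 in KO IRI. It differed by -5.55 ± 1.16 (adjusted p = 0.0428), a call lost without any 1 of 9 of the 12 arrays and in 11 of 21 alternatives. Plaur, the urokinase receptor, was at 3.05, 2.10 and 2.53 in WT IRI and at 0.61, 0.20 and 1.12 in KO IRI. Its difference of -1.92 ± 0.29 (adjusted p = 0.0123) was kept when any 1 array was left out. Atf3, a stress-induced transcription factor, differed by -2.22 ± 0.44 (adjusted p = 0.0366) and lost its call without any 1 of 9 arrays. In sham kidneys Atf3 differed by -2.01 and passed as well (adjusted p = 0.0225).

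The standard injury markers did not pass. Havcr1, which encodes KIM-1, was at 2.01, 4.16 and 3.78 in WT IRI and at -2.27, -0.70 and 2.92 in KO IRI. The groups overlapped because KO IRI replicate 3 lay above WT IRI replicate 1, and the difference was -3.34 ± 1.15 (adjusted p = 0.147). Krt20, a keratin of injured tubules, was at 5.76, 4.74 and 5.61 in WT IRI and at 1.42, 1.75 and 4.66 in KO IRI, again with KO IRI replicate 3 near WT. It differed by -2.76 ± 0.77 (adjusted p = 0.0943). Lcn2, which encodes NGAL, was at 8.19, 6.17 and 7.07 in WT IRI and at 5.64, 5.72 and 6.16 in KO IRI, and differed by -1.30 ± 0.41 (adjusted p = 0.121). In sham kidneys Lcn2 differed by -1.67 and passed (adjusted p = 0.0332). On every KO IRI array Lcn2 and Krt20 lay above their WT sham means of 1.87 and -1.26, and Havcr1 lay above its WT sham mean of -1.42 on 2 of 3.

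Relatives of Sprr2f, counted after its value was seen, gave 5 lower of 7 measured Sprr2 genes (against 1.04% of all genes) and a median of -2.40. The median of these 7 in sham kidneys was -0.07. Sprr2g was at 0.50, 0.88 and 0.27 in WT IRI and at -3.14, -3.22 and -1.67 in KO IRI, a difference of -3.22 ± 0.37 (adjusted p = 0.00436) kept whichever array was left out. The count was 4 to 6 with any 1 array left out and 0 in the fit to the 6 injured kidneys. Near-identical members of this family can share signal on a probe. Shared signal is possible too in the stefin A and cystatin-domain cluster, of which 5 of 6 measured members were lower with a median of -2.84 (3 were lower without WT IRI replicate 3 and 1 in the fit to the 6 injured kidneys). Unlike that of the Sprr2 genes, the sham median of this cluster was -1.35. Cstdc4 led that cluster at -4.19 ± 0.70 (adjusted p = 0.0177), lost without WT IRI replicate 3 or KO IRI replicate 2.

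Immediate early and AP-1 genes, the first transcription factors induced by injury and growth signals, had 4 of 15 members lower and 0 higher, with a median of -1.18 (-0.78 without WT IRI replicate 1). In all, 12 of the 15 were lower with no overlap. Of all genes 1.04% passed as lower and 9.46% lay lower with no overlap. Fosl1, a subunit of AP-1, was at 0.24, -0.76 and -0.42 in WT IRI and at -5.01, -6.03 and -2.36 in KO IRI. It differed by -4.16 ± 0.73 (adjusted p = 0.0221), lost without replicate 1 or 3 of WT IRI, or 1 or 2 of KO IRI. Fos, another subunit, was at 1.83, -0.33 and 1.05 in WT IRI and at -1.62, -2.71 and -1.22 in KO IRI, a difference of -2.70 ± 0.53 (adjusted p = 0.0352) lost without any 1 of 8 arrays. Ier3, an early response gene, differed by -1.54 ± 0.29 (adjusted p = 0.0296), lost without any 1 of 6. The list had 0 members lower when KO IRI replicate 2 was left out, 1 when WT IRI replicate 1 was, and 0 in the fit to the 6 injured kidneys. The AP-1 motif TGANTCA, searched on both strands, was in 12.7% of 126 matched genes lower in KO, in 10.9% of 119 higher in KO and in 7.27% of all matched genes.

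**Figure D3:**
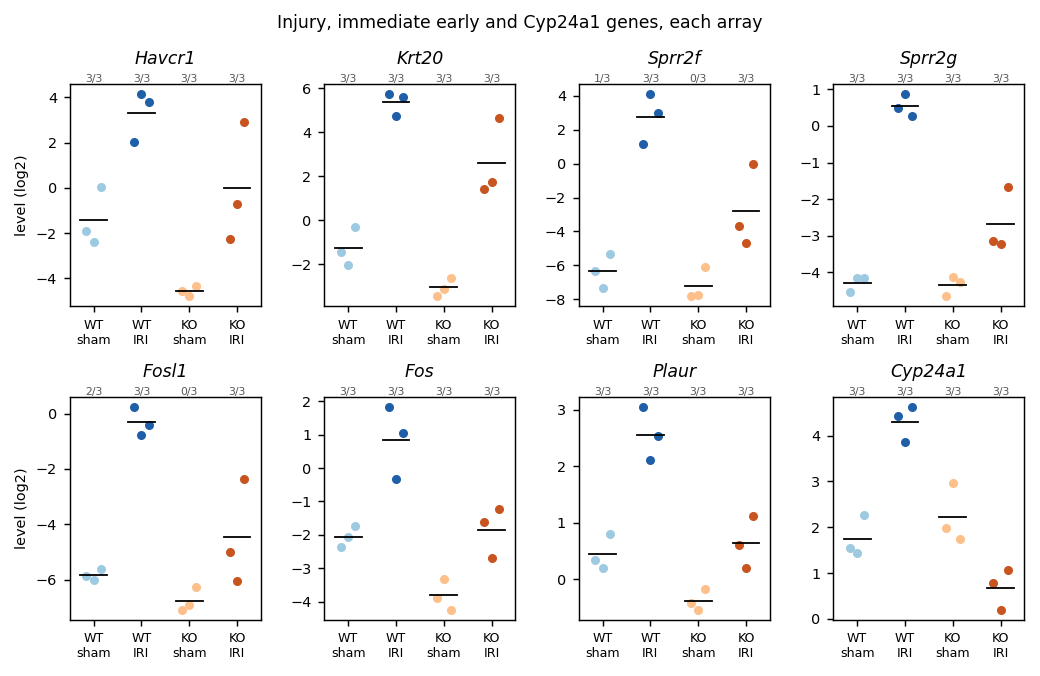
Level (log2, vertical axis) of 8 injury, immediate early and vitamin D genes on each of the 12 arrays by group, with a bar at the group mean and the number of arrays above background over each group. Sprr2g, Plaur and Cyp24a1 separate WT IRI from KO IRI by wide gaps, while KO IRI replicate 3 lies near or within the WT IRI values of Havcr1 and Krt20.

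Cyp24a1 gave a large difference in a bright tubule gene. It encodes the enzyme that breaks down active vitamin D in the proximal tubule. Its level was 4.43, 3.87 and 4.63 in WT IRI and 0.78, 0.20 and 1.06 in KO IRI. The difference of -3.63 ± 0.37 (adjusted p = 0.00302) passed in all 21 alternatives, from -3.89 to -3.39. Sham means were 1.75 in WT and 2.23 in KO, so the KO IRI arrays lay below both sham means and the WT IRI arrays above them. The interaction, that is the genotype difference in injured minus that in sham kidneys, was -4.10 (adjusted p = 0.0233), a call lost in 8 of 20 alternatives, 7 of them with 1 array left out. An offset common to all 6 arrays of a slide cancels in the interaction. Cyp24a1 was the only gene that passed among 14 measured cytochrome P450 and conjugation genes, whose median was 0.22.

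Genes that mark healthy nephron segments gave no call. Of 24 proximal tubule genes 0 passed, and their median was 0.05. The endocytic receptors Lrp2 and Cubn differed by 0.17 and 0.07 and the phosphate transporter Slc34a1 by 0.00. The members farthest from 0 were the lactate transporter Slc5a12, at 1.40 ± 0.41 (adjusted p = 0.103), and the phosphate and urate transporter Slc17a3, at -0.44 ± 0.12 (adjusted p = 0.0968). No gene passed among 13 of the thick limb and distal tubule, 13 of the collecting duct, 10 of the podocyte or 13 of the endothelium, with medians of 0.13, 0.31, 0.21 and 0.32. Tek, the angiopoietin receptor, and Ehd3 of glomerular endothelium were highest among endothelial members at 1.1 ± 0.38 (adjusted p = 0.149) and 0.72 ± 0.21 (adjusted p = 0.103). Oxidative phosphorylation (15 genes, median 0.06), fatty acid oxidation (14, median 0.05) and gluconeogenesis genes (9, median 0.10) had 0 members past the threshold.

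Of 20 measured interferon response genes 4 were lower in KO (against 1.04% of all genes) and 0 higher after injury. With no overlap 17 lay lower (against 9.46% of all genes), and the median was -1.56. In sham kidneys, where 3.75% of all genes passed as lower, 17 of these 20 did, with a median of -2.55. Irf7, the transcription factor that amplifies the interferon response, was at 6.71, 4.73 and 5.23 in WT IRI and at 2.70, 2.78 and 2.29 in KO IRI. It differed by -2.97 ± 0.46 (adjusted p = 0.0134) and kept its call whichever array was left out. Isg15, whose promoter is printed above, was at 3.33, 3.13 and 3.17 in WT IRI and at 1.14, 1.38 and 1.06 in KO IRI. Its difference of -2.02 ± 0.41 passed (adjusted p = 0.0376), as did those of the antiviral genes Mx1 at -2.61 ± 0.44 (adjusted p = 0.0177) and Oasl1 at -1.95 ± 0.39 (adjusted p = 0.0366). The spread of Isg15 and Oasl1 within the injured groups was small, and both also passed in the fit to the 6 injured kidneys alone, where 5 members of the list passed. In the 12-array fit Isg15 lost its call without replicate 1 or 3 of WT IRI or any KO array, sham or injured. Oasl1 lost its call without replicate 1 or 3 of WT IRI or of KO sham or any KO IRI array, and Mx1 without KO IRI replicate 2 or 3. Sham differences were -3.52 for Irf7, -2.97 for Isg15, -2.95 for Mx1 and -2.70 for Oasl1, all passed, and none of these 4 passed the interaction.

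Genes induced by interferon-gamma were split by 1 array. Of 18 measured GTPases and chemokines of this kind 0 passed and 16 were lower with no overlap (against 9.46% of all genes). The median of the 18 was -1.96, and -0.94 without WT IRI replicate 1. Ubd, a ubiquitin-like protein, was at 4.11, -2.20 and -1.74 in WT IRI and at -3.60, -3.14 and -2.65 in KO IRI. Gbp6, a guanylate-binding protein, was at 3.83, -0.57 and -0.64 in WT IRI and at -2.37, -2.19 and -2.14 in KO IRI. WT IRI replicate 1 thus lay near the WT sham means of 4.79 for Ubd and 5.31 for Gbp6, and the other WT IRI arrays did not. The same array was high in Psmb8, an immunoproteasome subunit, at 4.99 against 1.68 and 1.56, and in the class II gene H2-Aa, at 3.99 against 0.17 and 0.54. Of 13 class I and immunoproteasome genes and 12 dendritic cell and class II genes none passed, with medians of -1.02 and -1.48 that were -0.59 and -0.54 without that array. In sham kidneys the genotype differences were -7.65 for Ubd, -6.61 for Gbp6, -4.64 for Psmb8 and -3.77 for H2-Aa. All of these passed as lower in KO sham.

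**Figure D4:**
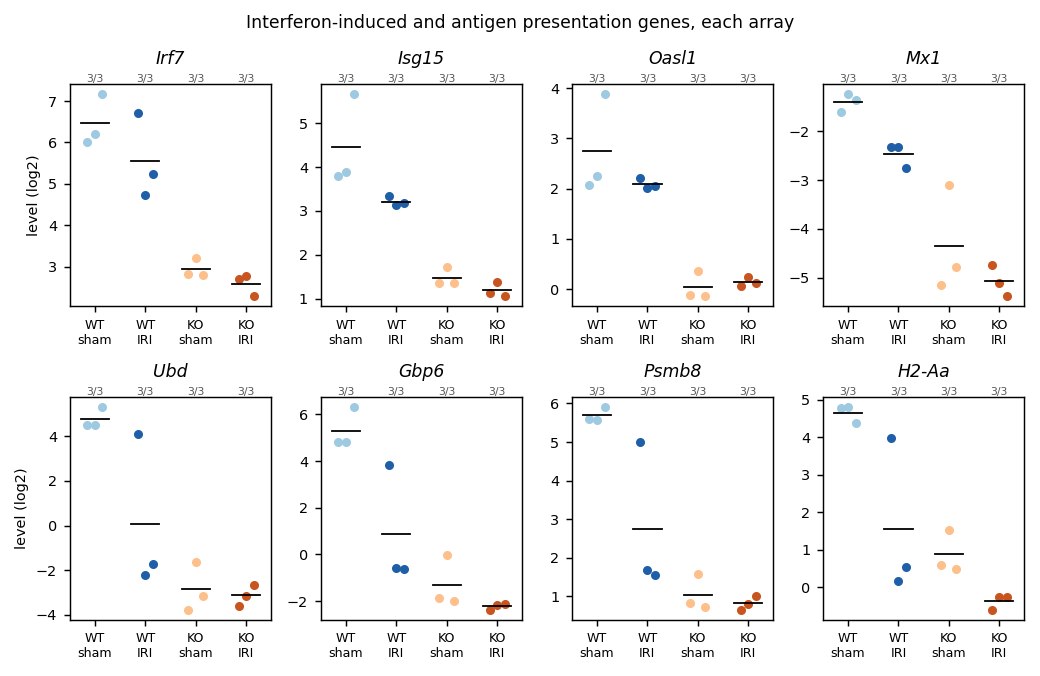
Level (log2, vertical axis) of 4 interferon-induced genes (upper row) and 4 interferon-gamma and antigen presentation genes (lower row) on each of the 12 arrays by group, with a bar at the group mean and the number of arrays above background over each group. In the upper row all WT IRI arrays lie above all KO IRI arrays, and in the lower row WT IRI replicate 1 lies far above the other WT IRI arrays and near the WT sham arrays.

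Other inflammatory and stress lists held few genes that passed. Lif, a cytokine of the interleukin-6 family, was the only one of 16 cytokine and receptor genes, at -3.48 ± 0.71 (adjusted p = 0.0396), and lost its call without any 1 of 8 arrays. The list had 4 members lower without WT IRI replicate 1, 3 with normexp correction and 0 without KO IRI replicate 2. Il6 was at -2.53, -0.11 and -0.18 in WT IRI and at -7.26, -8.39 and -2.93 in KO IRI, with only 1 KO array above background, and its difference of -5.25 ± 1.29 did not pass (adjusted p = 0.0700). Selp, the P-selectin of activated endothelium and platelets, was the only one of 13 adhesion genes, at -1.90 ± 0.31 (adjusted p = 0.0155), kept whichever array was left out, and 1 of 2 members without WT IRI replicate 1. Ripk3, the kinase of necroptosis, was lower by 1.31 in KO among 18 cell death and p53 genes, a difference of -1.31 ± 0.27 (adjusted p = 0.0415) lost in 12 of 21 alternatives. Ripk3 passed as lower in KO sham too, at -1.43 (adjusted p = 0.0124). Hspb1, a small heat shock protein, differed by -1.32 ± 0.27 (adjusted p = 0.0395), the only one of 15 heat shock and unfolded protein genes, and was lost in 11 of 21. In matrix remodelling 3 of 16 were lower (against 1.04% of all genes), Mmp8 and the proteases Adamts4 at -2.81 ± 0.48 (adjusted p = 0.0199) and Adamts1 at -1.27 ± 0.25 (adjusted p = 0.0369). Adamts4 lost its call without WT IRI replicate 3 or KO IRI replicate 2, and Adamts1 without any 1 of 8 arrays. The sham difference of Adamts4 was -2.60 and passed (adjusted p = 0.0115). Hk2 and Pfkp, enzymes of early glycolysis, were lower at -2.62 ± 0.36 (adjusted p = 0.0100) and -0.64 ± 0.12 (adjusted p = 0.0237) among 16 hypoxia and glycolysis genes whose median was -0.05. The call of Hk2 was kept whichever array was left out, and that of Pfkp was lost without replicate 3 of WT IRI, or 2 or 3 of KO IRI. Complement and coagulation genes (19 measured), acute-phase genes (11), cell cycle genes (20), efferocytosis genes (18) and T and NK cell genes (17) had 0 members past the threshold, with medians of -0.67, -1.26, -0.56, -0.11 and -0.46. Without WT IRI replicate 1 the first 4 medians were -0.34, -0.70, -0.29 and -0.02. The cell cycle median was -0.85 without WT IRI replicate 2, and the T and NK cell median was -0.29 without KO IRI replicate 1 and -0.21 with normexp correction.

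**Figure D5:**
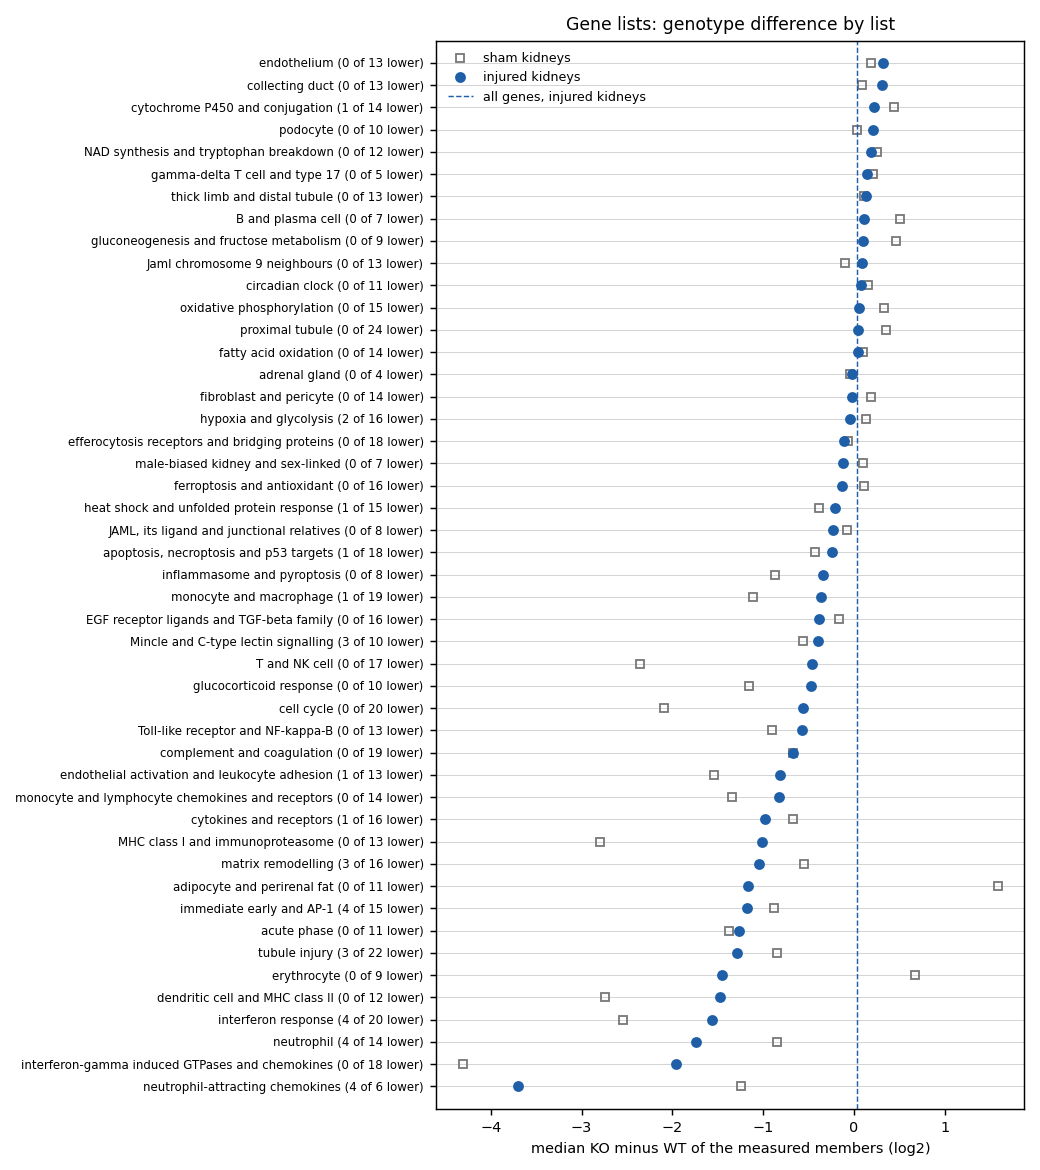
Median of the differences KO minus WT (log2, horizontal axis) over the measured members of each of 47 gene lists, for injured kidneys (filled circles) and sham kidneys (open squares), with the number of members lower in KO after injury beside each name and a dashed line at the median of all genes, 0.04. Neutrophil-attracting chemokines lie lowest in injured kidneys at -3.70, interferon-gamma genes lie lowest in sham kidneys at -4.31, and nephron segment lists lie near the dashed line.

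Markers of blood and fat were summed on each array. Of 9 measured erythrocyte genes 6 were lower in KO with no overlap (against 9.46% of all genes) and 0 passed. The summed level ran from 93.8 to 169.2 in WT IRI and from 28.5 to 81.2 in KO IRI, against 21.5 to 27.2 in WT sham and 28.7 to 44.0 in KO sham. The median difference of the 9 was -1.45. The beta-globin gene Hbb-b2 differed by -1.82 ± 0.41 (adjusted p = 0.0537). Slc4a1, which is also on the collecting duct list, went the other way at 1.85 and did not pass. The 11 measured adipocyte genes had summed levels of 72.4 to 106.7 in WT IRI and 69.6 to 78.7 in KO IRI, which overlapped, and 0 of them passed. Such a sum is carried by its brightest members. The median difference of the 11 was -1.17, and -1.16 without WT IRI replicate 1. Adipoq differed by -1.84 and Ucp1 by a fitted -3.70. Ucp1 of brown fat was at -2.66, 1.71 and -8.43 in WT IRI. The summed levels of proximal tubule genes ran from 2087 to 2375 in WT IRI and from 2178 to 2345 in KO IRI, so those ranges overlapped. The part of blood or fat in the genotype differences was not tested.

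Some of the largest falls belong to none of the lists. Prl2c5, a proliferin, was well above background on WT IRI arrays only and at least 4.35-fold lower in KO (adjusted p = 0.00353). Uox, which encodes urate oxidase, had the same pattern and was at least 3.83-fold lower (adjusted p = 0.00744). Slfn4, a schlafen of myeloid cells, was at -5.12, -1.98 and -2.14 in WT IRI and below background in KO IRI, at least 8.69-fold lower (adjusted p = 0.0374), a call lost without any 1 of 10 arrays. Grp and Vgf are outside the 10 largest falls and were chosen after their values were seen. The neuropeptide gene Grp was at -1.92, -1.43 and -1.07 in WT IRI and at -5.23, -5.88 and -4.18 in KO IRI, and on no sham array well above background. It differed by -3.62 ± 0.37 (adjusted p = 0.00336). Vgf, another neuropeptide precursor absent above background from all sham arrays, differed by -3.52 ± 0.67 (adjusted p = 0.0309) at its brightest probe and by -1.08 at the other, and its call was lost without any 1 of 8 arrays.

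Genes higher in KO were fewer in bright probes and mostly dim. Of the 237, 93.7% had a mean level below the 75th percentile, against 71.2% of the 267 lower genes and 56.3% of all genes. Among the 237, 53 were well above background on no WT IRI array and 110 had an ordinary gene symbol. The 10 largest by the naming rule were Gipr, Nmur1, Tmc3, Olfr800, T (which encodes brachyury), Olfr128, Olfr531, Brsk2, Olfr657 and Efcab15. All but Efcab15, with 1 array, were well above background on no WT IRI array. The incretin receptor gene Gipr was at least 1.53-fold higher in KO (adjusted p = 0.0304, lost without any 1 of 6 arrays), the neuromedin receptor gene Nmur1 at least 2.47-fold (adjusted p = 0.0113) and Tmc3 at least 1.33-fold (adjusted p = 0.00462). With normexp correction the differences of the 10 lay between 0.20 and 0.44, and no call of these 10 was kept. Of 305 measured olfactory and vomeronasal receptor genes 20 were higher (against 0.92% of all genes) and 0 lower. With no filter on dim probes 17 of 1372 were higher, with a median of -0.01, against 0.34 over the 305 that passed the filter. With array weights 95 were higher and 21 lower. With normexp correction 3 were higher, in the fit to the 6 injured kidneys 0 were, and with any 1 array left out of the 12-array fit 9 to 29 were. Of the 237 genes, 166 (70.0%) also passed as higher in KO in sham kidneys, as did 5.17% of all genes, and of the 267 lower genes 122 (45.7%) also passed as lower there. The injured and the sham comparison share no array but share the slides and the estimate of the spread.

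Among brighter genes, chosen after their values were seen, Gpc1 was the steadiest. This glypican, a heparan sulfate proteoglycan, was at 2.60, 2.49 and 2.45 in WT IRI and at 3.41, 3.67 and 3.19 in KO IRI, a difference of 0.91 ± 0.14 (adjusted p = 0.0123) kept in 20 of 21 alternatives. Dio1, the deiodinase that activates thyroid hormone in proximal tubule and liver, was at -0.30, 0.72 and 0.03 in WT IRI and at 1.40, 1.60 and 1.19 in KO IRI. It differed by 1.25 ± 0.22 (adjusted p = 0.0238), and its other probes by 1.17 and 1.24, with the call lost without WT IRI replicate 3 or KO IRI replicate 2. Dhtkd1, a mitochondrial dehydrogenase subunit of lysine breakdown, differed by 0.93 ± 0.15 (adjusted p = 0.0136), lost without KO IRI replicate 2. Gpc1, Dio1 and Dhtkd1 were higher in KO sham than in WT sham too, at 0.86, 1.36 and 0.67, all passed. Eaf2, an elongation factor partner, was the brightest of these at 4.33, 4.14 and 4.10 in WT IRI and 6.28, 6.13 and 4.87 in KO IRI. It differed by 1.57 ± 0.31 (adjusted p = 0.0369), but its other probes differed by 0.45 and -0.14 and the call was lost in 12 of 21 alternatives.

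The genotype difference was set against that in sham kidneys for every gene. In sham kidneys 2295 genes (8.91%) passed, 1330 (5.17%) higher and 965 (3.75%) lower in KO, and the interaction passed for 18 (0.0699%), of which 13 (0.0505%) had a more negative difference after injury. At an unadjusted p under 0.05 the interaction had 2522 genes (9.79%). Besides Cyp24a1, the genes of the injured comparison that passed the interaction included Cxcl3, Cxcl2, Grp, Hmga1 and Cited1. Of these, Grp, Hmga1 and Cited1 were chosen after their values were seen. The calls of Grp, Hmga1 and Cited1 were lost in 12, 9 and 8 of 20 alternatives, and those of Cxcl3 and Cxcl2 with normexp correction only, of 19. Hmga1, which encodes a chromatin protein of growing cells, was at 5.65, 5.43 and 5.39 in WT IRI and at 4.12, 4.50 and 4.37 in KO IRI, with sham means of 3.47 in WT and 3.74 in KO. Its difference was -1.16 ± 0.12 after injury (adjusted p = 0.00353), though its other 2 probes gave -0.90 and -0.25. Cited1, a transcriptional cofactor of the embryonic kidney, differed by -1.73 ± 0.20 after injury (adjusted p = 0.00524) and by 0.74 in sham kidneys.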

How the data were processed

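Per the file headers, the deposited scanner tables hold intensities of spots, written by Agilent Feature Extraction 10.7.1.1, with a processed signal that is background-corrected and on a linear scale. The authors also deposited a table of log2 values, used here as an alternative, and limma is named without a version in the submitters' processing notes. The scaling of that table is not stated in any source used here.

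Control spots and outlier-flagged spots were left out, spots of a probe were averaged, and log2 processed signals were reduced by the array's 75th percentile. Probes well above background on at least 3 of 12 arrays were kept (39450 of 56605), and each gene took its kept probe with the highest mean, giving 25748 genes. Symbols were updated by accession through RefSeq (GRCm38.p6), which named 32994 probes. Probe coordinates are on mm9. limma 3.58.1 in R 4.3.3 fitted 1 coefficient per group over 12 arrays (8 residual degrees of freedom). Tests were two-sided and p-values were adjusted by Benjamini-Hochberg over 25748 genes, and the fit was tested on simulated data. A bound ("at least N-fold") sets the brighter group's mean against the dimmer group's, in which each array counts with the probe's signal or with the lowest signal well above background there, whichever is larger.

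Named genes are Jaml, Clec4e, Havcr1 and Lcn2, the 10 largest rises and falls that passed with an ordinary symbol, no overlap and every array of the brighter group well above background, and for each of 47 lists up to 4 members that passed in the commoner direction and 2 in the other, or the 2 largest differences where none passed. Genes outside this rule are named as chosen after their values were seen, or stand in a list's account as values. The comparison, lists and genes were chosen with earlier results of these data known. The p-values measure the spread between these kidneys, provided that replicates share nothing beyond their group. The correlations of same-numbered arrays given below bear on that condition. The alternatives were normexp background correction, quantile normalization, 2 other filters on dim probes, the 6 arrays alone, array weights, the mean over probes, the deposited log2 table, the replicate number as a block, and leaving out each array. The precision is limited by 3 arrays per group.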

Additional observations from a re-analysis of the deposited data

Results flagged for a closer look

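The genotype difference itself differed between injured and sham kidneys, by limma's interaction test with adjustment over all genes, in 8 of the named genes. Of these, Grp, Gsdma, Crtac1, Cited1 and Hmga1 are outside the naming rule and were chosen after their values were seen. The count of 8 is thus not a share of genes set beforehand. For the chemokine genes Cxcl3 and Cxcl2 the difference in injured minus that in sham kidneys was -6.25 and -4.03 (adjusted p = 0.00587 for both), fitted values that are open at the dim end because KO IRI and all sham arrays were not well above background, and both calls were lost with normexp correction. For the vitamin D enzyme gene Cyp24a1, measured on all 12 arrays, it was -4.10 (adjusted p = 0.0233). For the neuropeptide gene Grp it was -3.79 (adjusted p = 0.0425), for the epithelial gasdermin gene Gsdma -3.13 (adjusted p = 0.0400) and for Crtac1, a secreted matrix protein gene, -4.72 (adjusted p = 0.0137). These 3 values are open at the dim end too: Grp was well above background on no sham array, Gsdma on 1, and Crtac1 on WT IRI arrays only, so that KO was at least 5.58-fold lower after injury and sham kidneys give no measured difference. The remaining genes were Cited1 at -2.47 and Hmga1 at -1.43 (adjusted p = 0.0233 for both). With 1 array left out, between 2 and 8 of the 8 genes passed, with the lowest count when replicate 1 of WT sham, or 1 or 3 of KO sham, was left out, and with the replicate number as a block 3 passed. Calls were lost in 12 of 20 alternatives for Grp and Gsdma, in 9 for Hmga1, in 8 for Cyp24a1 and Cited1 and in 4 of 19 for Crtac1.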

How the results depend on the processing

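With 504 genes passing in injured kidneys, the count was 338 with normexp correction, 501 with quantile normalization, 341 with no filter on dim probes, 35 with only the 6 arrays compared, 8017 with array weights (a fit whose weights ran from 0.0761 to 31.0 and did not converge) and 148 to 974 with 1 array left out. The 2295 genes of the sham comparison became 4023 with only the arrays compared, 12022 with array weights and 658 to 4396 with 1 array left out. The 18 genes of the interaction became 37 with normexp correction, 6570 with array weights, 9 with the mean of all kept probes and 4 to 147 with 1 array left out. With the replicate number as a block the counts were 286 in injured kidneys and 5 for the interaction. The numbers were not taken as pairing the mice, because no source used here states a pairing. The deviations of same-numbered WT IRI and KO IRI arrays from their group means correlated at 0.0748 to 0.140, and those of other pairs at -0.207 to 0.103. Of 6 arrays, 5 correlated best with their own number, and whether same-numbered arrays share more than the number was not tested. Jaml passed only with array weights, at -1.02, and lay between -1.99 and -0.81 with 1 array left out. Of 73 named genes that passed, 9 passed in every alternative that measured them, and none changed sign. The slide as a block could not be fitted, because each slide held 1 genotype. Dim probes limit the folds: 24 genes lower in KO were well above background on no KO IRI array.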

Other observations

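Jchain, which encodes the joining chain of polymeric antibodies, was at -4.02, -4.11 and -4.47 in WT IRI and at -2.48, -2.30 and 0.14 in KO IRI, with no overlap. Its difference of 2.65 ± 0.81 did not pass (adjusted p = 0.114), and KO IRI replicate 3 was far above the other KO IRI arrays. Gzmb, a granzyme of cytotoxic lymphocytes, was at -2.39, -2.45 and -3.23 in WT IRI and at -5.73, -5.26 and -5.91 in KO IRI. Its groups were far apart and tight, but the difference of -2.94 ± 0.88 did not pass in the 12-array fit (adjusted p = 0.109), whose spread includes the sham arrays. The WT sham mean of Gzmb was 1.23, above every injured kidney. In sham kidneys Gzmb differed by -5.07 and passed as lower in KO (adjusted p = 0.00870). Igsf5, which encodes a junctional adhesion molecule of tight junctions, differed by -0.51 ± 0.24 (adjusted p = 0.248).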
